A study of Mus musculus with 12 samples.

Results

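The Hox genes encode homeodomain transcription factors that stand in 4 clusters in the mouse genome, HoxA on chromosome 6, HoxB on chromosome 11, HoxC on chromosome 15 and HoxD on chromosome 2. Chromatin accessibility at 38 of these genes was examined in hepatocytes of 12 mice. The assay was ATAC-seq, which reads out where a transposase can reach the DNA. The genes were 10 of HoxA, 10 of HoxB, 9 of HoxC and 9 of HoxD. A peak belonged to a gene when it overlapped the gene's annotated span or lay within 5 kb of it. Peaks of the 12 libraries that overlapped by at least 1 bp were joined, which gave 142 Hox regions of 262701 regions in all. Regions found in 3 or more libraries entered the tests, 64 from the clusters and 136298 in all, and 78 Hox regions were found in only 1 or 2 libraries.

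All mice carried floxed alleles of Fbxl5, whose protein directs the iron regulatory protein IRP2 to degradation. Floxed controls (FBXL5F/F) had no Cre, and Fbxl5-deleted mice (Alb-Cre/FBXL5F/F) had Cre recombinase under the albumin promoter, which is active in hepatocytes and their fetal precursors. Mice of both genotypes were fed for 2 weeks with standard chow or with 0.1% DDC, a porphyrinogenic compound that causes cholestasis, and each of the 4 groups held 3 mice. Hepatocytes were taken from the liver by collagenase perfusion, and each library is taken here as 1 mouse. The sources used here give no age, sex or strain. The design asks how accessibility differs between the genotypes with and without cholestasis.

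Hox proteins set position along the body axis of the embryo, and the order of the genes on the chromosome follows the order of the body parts in which they act. Genes at the anterior end of a cluster pattern the hindbrain and neck, central genes the trunk, and posterior genes the lower trunk, limb ends and genital tract. Polycomb complexes keep the clusters compact and silent where they are not used, trithorax complexes keep them open where they are, and retinoic acid opens them from the anterior end in the embryo. Boundaries within the clusters are held in many cell types by the insulator protein CTCF. Adult hepatocytes express few Hox genes, whereas fibroblasts and other mesenchymal cells keep a Hox pattern set by their position.

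Start sites of the clusters differed in whether any library listed a peak over them. RefSeq promoter windows (GRCm38.p6, the assembly of mm10), which run from 250 bases before to 50 bases after a gene's start, were at hand for 22 of the 38 genes, as 24 windows. A kept peak lay over 4 of these windows in all 12 libraries, over 6 more in 3 to 11 libraries, over the Hoxd12 window in 1 library and over the other 13 in no library. With a peak in all 12 libraries the Hox share was 16.7%, against 41.4% of the 32851 windows of all genes. With a peak in 3 or more it was 41.7%, near the 47.9% of all windows. Among all genes 15935 of the 32851 windows had no peak in any library. Of the 24 Hox windows 4 are shown to make the contrast visible, on the gene's strand and with each CG dinucleotide in capitals. The contrast is widened by the choice, since Hoxa13 has the most CG dinucleotides and the highest GC content of the 24. A Hoxd11 window with a peak in all libraries (25 CG dinucleotides, 62.0% GC) is not shown. Hoxa10 (chr6:52240805-52241104, minus strand), Hoxd9 (chr2:74697513-74697812, plus strand) and Hoxa13 (chr6:52260831-52261130, minus strand) carried a peak in 12 libraries. Hoxd4 (chr2:74721728-74722027, plus strand) carried none in any library, and it was chosen after the values were seen, as the window with the fewest CG dinucleotides and the lowest GC content among those without a peak.
Hoxa10: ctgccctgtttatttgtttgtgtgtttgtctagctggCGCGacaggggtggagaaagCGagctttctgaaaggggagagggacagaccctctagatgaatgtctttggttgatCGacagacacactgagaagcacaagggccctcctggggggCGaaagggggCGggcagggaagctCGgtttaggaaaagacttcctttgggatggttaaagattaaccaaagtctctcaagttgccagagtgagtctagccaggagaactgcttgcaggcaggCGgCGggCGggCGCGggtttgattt
Hoxd9: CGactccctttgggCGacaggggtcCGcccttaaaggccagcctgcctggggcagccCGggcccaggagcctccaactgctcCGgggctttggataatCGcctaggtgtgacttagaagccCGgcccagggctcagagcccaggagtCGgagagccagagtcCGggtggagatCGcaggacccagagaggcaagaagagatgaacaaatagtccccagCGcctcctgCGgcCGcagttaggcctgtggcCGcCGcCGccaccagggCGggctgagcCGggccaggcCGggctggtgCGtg
Hoxa13: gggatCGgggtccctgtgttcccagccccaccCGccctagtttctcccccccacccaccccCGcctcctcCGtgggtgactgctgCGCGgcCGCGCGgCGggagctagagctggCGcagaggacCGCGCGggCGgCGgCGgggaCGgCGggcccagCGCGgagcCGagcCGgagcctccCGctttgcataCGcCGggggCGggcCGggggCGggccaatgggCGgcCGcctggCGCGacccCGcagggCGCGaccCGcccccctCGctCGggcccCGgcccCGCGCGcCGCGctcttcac
Hoxd4: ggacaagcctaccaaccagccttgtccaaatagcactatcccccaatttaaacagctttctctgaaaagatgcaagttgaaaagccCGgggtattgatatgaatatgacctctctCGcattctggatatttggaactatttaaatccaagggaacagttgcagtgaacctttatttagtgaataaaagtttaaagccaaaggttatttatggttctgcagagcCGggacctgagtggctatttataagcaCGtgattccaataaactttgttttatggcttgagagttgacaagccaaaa
The Hoxa10 window held 12 CG dinucleotides and 54.3% GC, the Hoxd9 window 20 and 68.3%, the Hoxa13 window 45 and 81%, and the Hoxd4 window 4 and 39.7%.

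Over all 24 Hox windows, the median number of CG dinucleotides was 22.5 (range 12 to 45) in the 4 with a peak in all libraries, 25.5 (20 to 37) in the 6 with a peak in 3 to 11, and 9 (4 to 26) in the 13 without one. Hoxa13 and Hoxd13, which pattern digits and the genital tubercle, had the most. Peaks over CG-rich starts of the Hox clusters were mostly present but seldom in every library. Of the 11 Hox windows with at least 20 CG dinucleotides, 3 (27.3%) had a peak in all 12 libraries, against 86.1% of the 8701 such windows of all genes. A peak in 3 or more libraries was found over 9 of the 11 (81.8%), against 91.7% of all such windows. All 11 belong to HoxA and HoxD, since the few HoxB and HoxC windows at hand have fewer CG dinucleotides. Among windows with at least 10, a peak in all libraries was found over 4 of 17 (23.5%) and 77.9% of 14281, and a peak in 3 or more over 58.8% and 84.7%. These CG classes were set after the values were seen, and no test was made of them. Hoxa6, with 26 CG dinucleotides, had no peak in any library, and neither had Hoxb8, Hoxb4 or Hoxb1. The second windows of Hoxa10 and of Hoxd11, genes with more than 1 annotated start, were also without a peak.

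**Figure D1:**
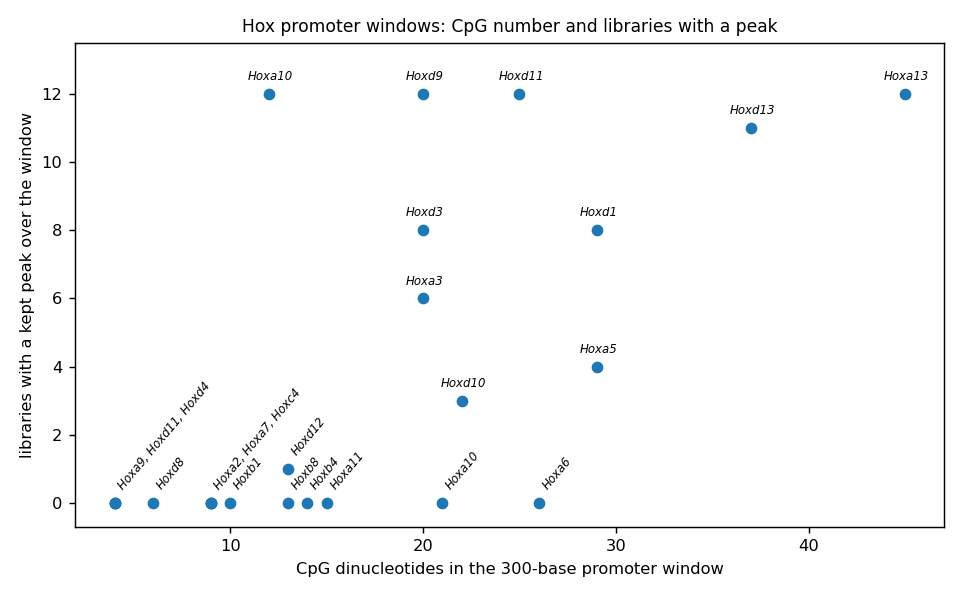
CG dinucleotides in each of the 24 Hox promoter windows of 300 bases (horizontal axis) against the number of the 12 libraries with a kept peak over the window (vertical axis). Each point is a window, labelled with its gene. Windows at 12 libraries hold between 12 and 45 CG dinucleotides, and the 13 windows at 0 hold between 4 and 26.

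Short motifs in the same windows were rare and close to their shares among all promoters. On either strand, TATAAA, the core of the TATA box, was found in 4 of 24 Hox windows (16.7%) against 13.6% of 32851 windows of all genes. TAATTA, the core bound by many homeodomain proteins, was in 2 (8.33% against 5.29%), and TGANTCA, the AP-1 site, in 1 (4.17% against 7.81%). No motif holds another, and a match describes the letters only.

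The clusters also hold microRNA genes. Those of the miR-10 and miR-196 families are shown because each seed (bases 2 to 8, in capitals) is carried by more than 1 Hox cluster.
miR-10a-5p (HoxB): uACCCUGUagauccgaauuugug
miR-10b-5p (HoxD): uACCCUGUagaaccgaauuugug
miR-196a-5p (HoxB and HoxC): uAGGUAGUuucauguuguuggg
miR-196b-5p (HoxA): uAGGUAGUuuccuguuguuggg
The nearest tested region to Mir10b lay 363 bp away, inside the Hoxd4 span, and was listed in 12 of 12 libraries. For Mir10a the nearest lay 1918 bp away and was listed in 6. At Mir196b the distance was 2378 bp (7 libraries), at Mir196a-2 2315 bp (3 libraries) and at Mir196a-1 6309 bp (9 libraries). So of these 5 loci only Mir10b had a region listed by every library near it.

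A few facts on the libraries bear on all that follows. The lists held 137034 to 262080 peaks, and those of Fbxl5-deleted standard-diet mice 1 and 3 stood apart at 262080 and 260622, with many weak peaks of equal fold enrichment. From each list the strongest 137034 peaks were kept, or fewer where equal peaks at the last place could not all be kept, which left 114885 and 129755 in those 2 libraries, 129914 in control DDC mouse 3, 124672 in deleted DDC mouse 2 and at least 137028 in the others. Peaks whose −log10 q reached 5 numbered 70044 to 86745 on DDC and 46949 to 70517 on the standard diet, and the diets overlapped only in that deleted DDC mouse 3 (70044) lay below control standard mouse 2 (70517). Markers of the labelled cell type were open: all 10 hepatocyte markers had a tested region listed in all 12 libraries. Such a region was also present for 7 of 10 markers of stellate cells and fibroblasts, 7 of 8 of sinusoidal endothelium, 5 of 8 of cholangiocytes, 4 of 8 of macrophages and myeloid cells and 3 of 8 of lymphocytes, and whether it stems from those cells or from hepatocytes was not tested. Markers with no tested region near them included Krt19, Cftr, Dcn, Clec4f, Marco, Cd8a, Ms4a1 and Ncr1.

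Hox regions were weaker and less constant than accessible regions at large. Strength is given as a percentile, the rank of a peak's fold enrichment within its own library, where 100 is the strongest peak and an absent region counts as 0 in a median. The median percentile over the 12 libraries was 23.6 for the 64 Hox regions and 43.7 for all tested regions. Only 15 Hox regions (23.4%) were listed in all 12 libraries, against 44.7% of all, and 21 (32.8%) in 3 to 5 libraries, against 24.1%. A median percentile over 80 was reached by 3 Hox regions (4.69%), against 19.1% of all. Widths were alike, with medians of 486 and 473 bp. A promoter window of any gene was overlapped by 12 Hox regions (18.8%), against 9.23% of all. Hox regions were chosen for lying within 5 kb of a gene and the others were not, so these shares are not on equal terms. In the joined windows of the 38 genes, kept peaks covered 3.53% of the DNA on average over the libraries (range 2.58 to 4.37%). The same share was 2.87% for all protein-coding genes, 3.66% for other developmental homeobox and paired-box genes and 8.97% for the hepatocyte markers. Low ranks were not particular to the clusters: the tested regions of those developmental genes and of the hepatocyte markers both had a median percentile of 24.7.

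**Figure D2:**
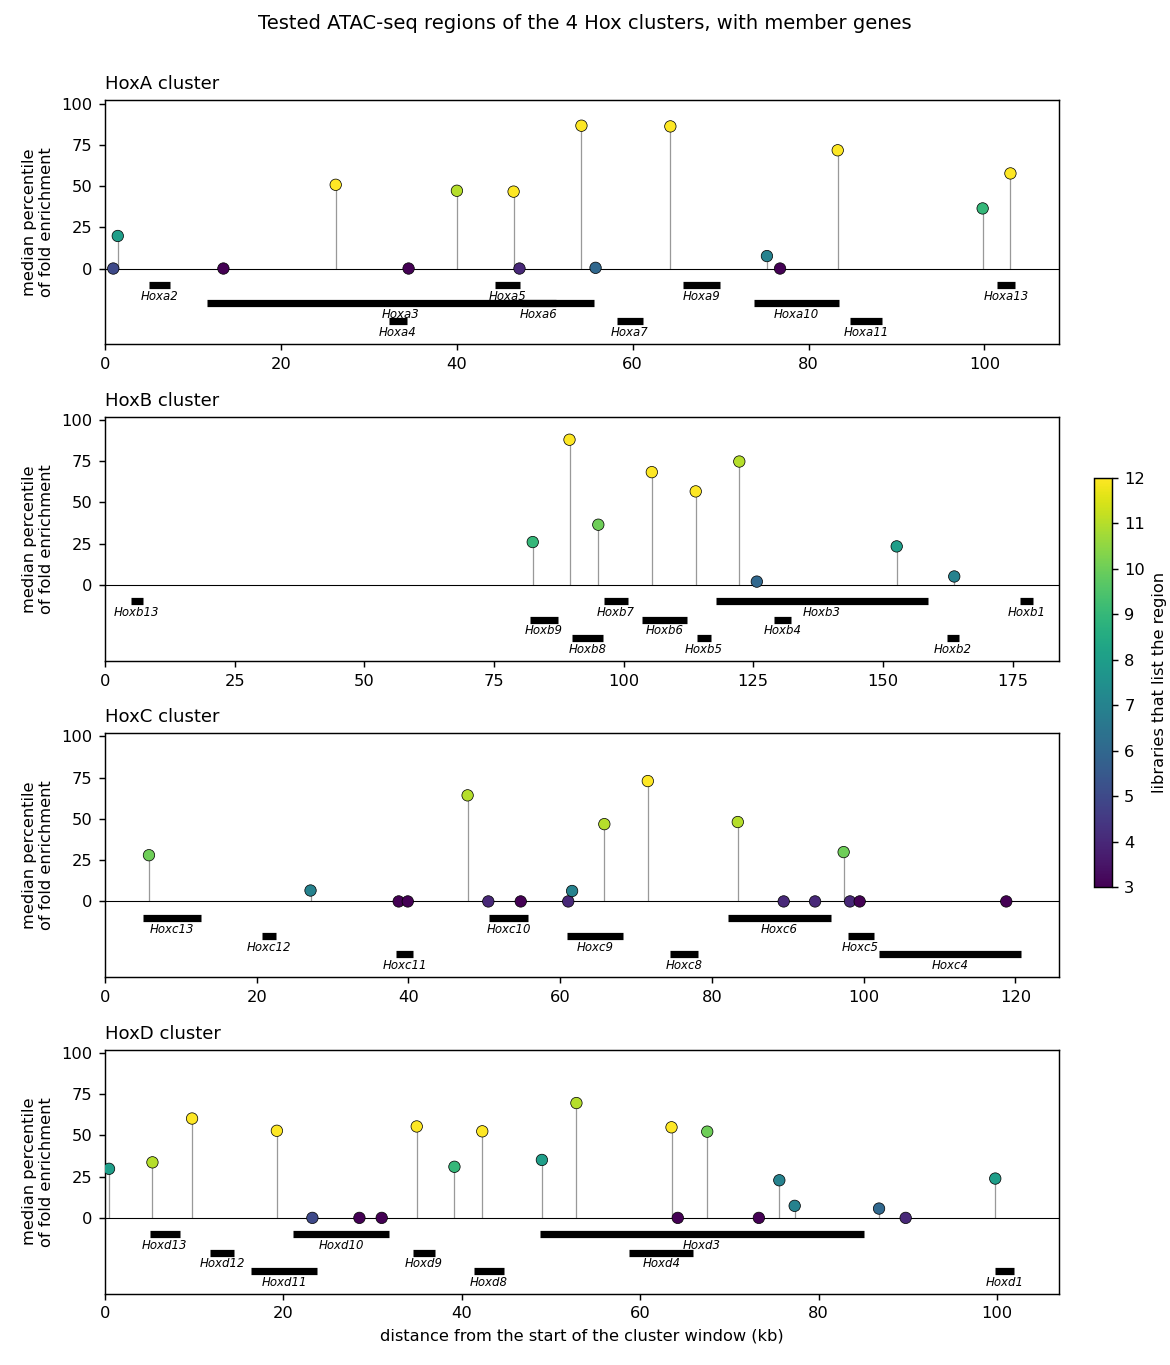
Tested regions along the HoxA, HoxB, HoxC and HoxD clusters (horizontal axis, kb from the start of the cluster window), with the median percentile of fold enrichment over 12 libraries (vertical axis). Colour gives the number of libraries that list the region and black bars the annotated gene spans. The tallest regions are in HoxB (88.0) and HoxA (86.6 and 86.1), and HoxC holds 1 region listed in all 12 libraries.

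The 4 clusters differed in how much of them was open. HoxD and HoxA were covered most by kept peaks, at 5.17 ± 1.04% and 4.46 ± 0.53% of the span from the first to the last gene with 5 kb on each side (SD, n = 12 libraries). HoxC (2.50 ± 0.64%) and HoxB (1.81 ± 0.50%) were covered less. Within a library, HoxA and HoxD each had the larger share than HoxC and than HoxB in 12 of 12 libraries, whereas HoxD exceeded HoxA in 8 of 12. HoxC exceeded HoxB in 12 of 12, but the HoxB span includes a long stretch without members between Hoxb13 and Hoxb9. Over the windows of the genes alone, HoxB reached 2.04% and HoxC 2.62%. Per 100 kb there were 18.0 kept peaks in HoxD, 17.0 in HoxA, 10.3 in HoxC and 7.70 in HoxB.

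Between groups that differed in genotype alone or in diet alone, ranges of covered share that did not overlap were found in HoxD, HoxA and HoxB. In HoxD, floxed controls on the standard diet had 5.94 ± 0.93% (SD, n = 3 in each group) and Fbxl5-deleted mice 3.84 ± 0.71%, with ranges of 4.88 to 6.57% and 3.03 to 4.35% that did not overlap. On DDC the HoxD shares were 5.63 ± 0.35% in floxed controls and 5.28 ± 0.74% in Fbxl5-deleted mice, and their ranges overlapped. The Fbxl5-deleted ranges were apart between the diets (3.03 to 4.35% and 4.54 to 6.01%). In HoxB, floxed controls had 1.46 ± 0.49% on the standard diet and 2.35 ± 0.48% on DDC, and Fbxl5-deleted mice 1.45 ± 0.15% and 1.99 ± 0.16%. The HoxB ranges overlapped between the diets in floxed controls (1.11 to 2.02% and 1.94 to 2.88%) and were apart in Fbxl5-deleted mice (1.30 to 1.60% and 1.90 to 2.17%). HoxA went from 4.15 ± 0.40% to 4.78 ± 0.21% in floxed controls and from 4.01 ± 0.61% to 4.92 ± 0.24% in Fbxl5-deleted mice, with no overlap between the diets in either genotype. Over the windows of the HoxA genes alone, floxed controls did overlap (up to 4.494% on the standard diet and from 4.471% on DDC). Fbxl5-deleted mice were barely apart there (up to 4.649% and from 4.658%). The mean share over all protein-coding genes also rose with DDC, from 2.91 to 2.99% in floxed controls and from 2.70 to 2.90% in Fbxl5-deleted mice. HoxC stood at 2.34 ± 0.70% and 3.10 ± 0.44% in floxed controls and at 1.92 ± 0.28% and 2.63 ± 0.63% in Fbxl5-deleted mice, with overlap in both. With 3 libraries against 3, a two-sided exact permutation test cannot give a p below 0.1, so none of these shares can pass a threshold. Lists that were kept shorter belong to the lower group in HoxD: 2 of the 3 Fbxl5-deleted standard-diet libraries held fewer kept peaks, and the mean share over all protein-coding genes was 2.70% in that group against 2.91% in floxed controls. Mouse 2 of that group, whose list was not kept shorter, had 4.35%. The diet ranges that were apart in Fbxl5-deleted mice, in HoxD, HoxB and HoxA, rest on the same standard-diet libraries. The part of list length in these differences was not tested.

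In HoxA all 10 genes had a tested region within 5 kb, and 16 of its 39 regions were tested. The strongest lay between genes of the middle of the cluster. A region at chr6:52211272-52211913, between the spans of Hoxa6 and Hoxa7 and within the long spans of Hoxa3 and of the antisense RNA gene Hoxaas3, had percentiles of 94.1, 78.6 and 91.2 in floxed controls on the standard diet (mice 1 to 3), 84.4, 87.6 and 81.6 in Fbxl5-deleted mice on that diet, 83.3, 85.5 and 92.5 in floxed controls on DDC and 88.3, 89.7 and 80.7 in Fbxl5-deleted mice on DDC. The 4 groups overlapped throughout. Between Hoxa7 and Hoxa9, a leukaemia-associated gene of blood stem cells, chr6:52221306-52222102 lay 995 bp from the Hoxa9 span and ranged from percentile 78.5 to 91.7 over the 12 libraries. The region over the Hoxa10 promoter printed above, chr6:52240346-52241125, was the third. Hoxa10 acts in the uterus and lower trunk. Its percentiles were 42.8, 76.8 and 58.0, then 71.1, 73.5 and 62.5, then 72.2, 65.5 and 81.8, and then 67.6, 84.5 and 81.7 in the same order of groups, so the lowest values were in floxed controls on the standard diet and the ranges overlapped. At the Hoxa13 end, chr6:52259609-52261139 covered the promoter with a median percentile of 57.6 in 12 libraries. Hoxa4 and Hoxa2 had no region listed in all libraries within 5 kb, and the best median percentile near Hoxa4 was 0, since its only tested region was kept in 3 libraries.

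HoxB held the strongest of all Hox regions and also the 2 genes with the least. Of its 26 regions 9 were tested and 3 were listed in all 12 libraries. A region at chr11:96278643-96279134, between Hoxb9 and Hoxb8 and 267 bp from the Hoxb8 span, had percentiles of 82.2, 84.5 and 81.2 in floxed controls on the standard diet, 34.0, 86.8 and 89.3 in Fbxl5-deleted mice on that diet, 96.8, 89.2 and 92.3 in floxed controls on DDC and 91.3, 86.2 and 90.3 in Fbxl5-deleted mice on DDC. The DDC libraries of floxed controls were all above their standard-diet libraries, and the low value of 34.0 came from Fbxl5-deleted standard-diet mouse 1, 1 of the 2 libraries that stood apart. The diet difference in floxed controls was 0.52 ± 0.31 (limma adjusted p = 0.347), and 0.52 ± 0.15 (adjusted p = 0.034) without that library. Hoxb8 acts in blood progenitors and in the thoracic trunk. Within the Hoxb6 span, chr11:96294419-96295101 ranged from percentile 57.8 to 83.8. Inside the long span of Hoxb3 and between Hoxb5 and Hoxb4, chr11:96311392-96311873 had a median percentile of 74.8 and was absent in 1 library. Hoxb1, which patterns a hindbrain segment, had 3 regions within 5 kb and none of them in 3 libraries. Hoxb13, a gene of the prostate and tail end that stands apart from the rest of the cluster, had no kept peak in any library.

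HoxC was open at few constant places. All 9 genes had a tested region, but of 18 tested regions of 37 in all only 1 was listed in every library, and the median percentile over the tested regions was 0 because 10 of the 18 were listed in 5 libraries or fewer. The constant one, chr15:102987427-102987927, lay between Hoxc9 and Hoxc8, 2612 bp from the span of Hoxc8, which shapes thoracic vertebrae and motor neurons. It had percentiles of 87.3, 77.3 and 81.2 in floxed controls on the standard diet, 60.1, 62.8 and 85.1 in Fbxl5-deleted mice on that diet, 67.2, 68.6 and 81.6 in floxed controls on DDC and 77.5, 63.5 and 58.5 in Fbxl5-deleted mice on DDC. The highest single value was in a floxed control on the standard diet, and every group overlapped at least 1 other. Between Hoxc11 and Hoxc10, a gene of the lumbar spine and hindlimb, chr15:102963709-102964142 had a median percentile of 64.3 in 11 libraries. In the Hoxc6 span, chr15:102999031-103000041 had 48.1 in 11 libraries. Hoxc11 and Hoxc12 had only regions with median percentiles of 0 and 6.6.

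HoxD had the most tested regions, 21 of 40, with 5 listed in all 12 libraries and none very strong. All 9 genes had a tested region. The highest, chr2:74715686-74716445, lay in the Hoxd3 span over the promoter of the antisense RNA gene Hoxd3os1, with a median percentile of 69.6 in 11 libraries. Between Hoxd13, the digit gene mutated in synpolydactyly, and Hoxd12, chr2:74672665-74673297 had percentiles of 72.7, 59.2 and 66.4 in floxed controls on the standard diet, 68.8, 61.8 and 62.5 in Fbxl5-deleted mice on that diet, 47.5, 28.9 and 55.0 in floxed controls on DDC and 56.3, 28.5 and 61.2 in Fbxl5-deleted mice on DDC. In both genotypes every DDC library was below every standard-diet library. The difference was −0.65 ± 0.26 log2 in floxed controls (limma adjusted p = 0.152) and −0.43 ± 0.26 in Fbxl5-deleted mice (adjusted p = 0.417), and neither passed the test described below. Over the Hoxd9 promoter printed above, chr2:74697502-74698833 ranged from percentile 36.0 to 74.0. Its groups overlapped, except that Fbxl5-deleted mice on DDC (45.1 to 54.8) lay below floxed controls on the standard diet (56.0 to 67.5). The Hoxd4 promoter, without a peak, contrasts with chr2:74726500-74726951 further inside the Hoxd4 span, near Mir10b, which was listed in 12 libraries with a median percentile of 54.9.

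**Figure D3:**
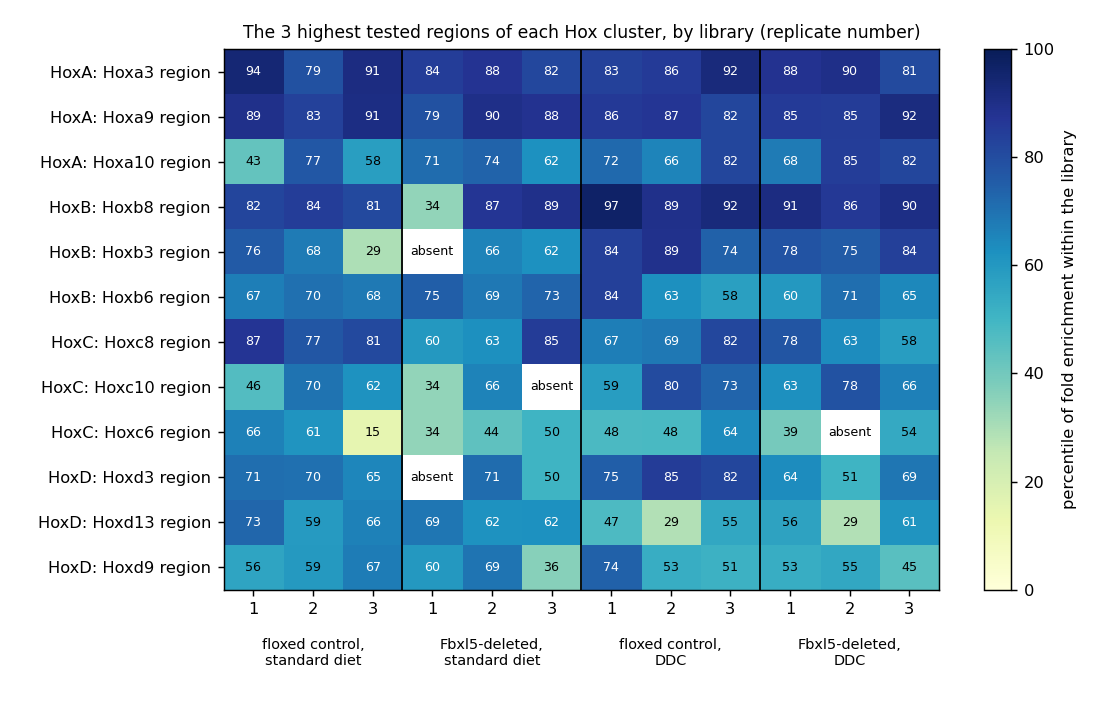
Percentile of fold enrichment within the library (colour and number) for the 3 highest tested regions of each cluster (rows) in the 12 libraries (columns, replicates 1 to 3 of the 4 groups). White cells are absent regions. The HoxA regions of Hoxa3 and Hoxa9 stay between 78.5 and 94.1 in all libraries, and in the first Fbxl5-deleted standard-diet library the Hoxb8 region is at 34.0 and 2 regions are absent.

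The following 5 comparisons were then tested: DDC against the standard diet in each genotype, Fbxl5 deletion against control on each diet, and the genotype by diet interaction. Differences are on a log2 scale of rank-based fold enrichment, where a region's rank within its library is mapped to the mean distribution of fold enrichment over the libraries and an absent region takes the lowest value, 1.27. They are given ± SE from limma on all 12 libraries, with p-values adjusted by the Benjamini-Hochberg method over all 136298 tested regions, and a region was called at an adjusted p under 0.05. In a bulk preparation, more cells with an open site and a more open site per cell cannot be told apart.

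DDC in floxed controls raised 2 of the 64 Hox regions (3.13%) and lowered none. Over the genome 7.15% of tested regions were called in this comparison, 4.75% higher and 2.41% lower, so the Hox count lay below the background share. At an unadjusted p under 0.05 there were 7 Hox regions, against 21.4% of all. The median difference over the 64 was 0.03, against −0.01 over all. By cluster the medians were 0 in HoxA, 0.42 in HoxB, 0.05 in HoxC and −0.07 in HoxD. In HoxB all 9 tested regions had a positive difference, against 48.0% of all tested regions. It was 7 of 9 without control standard mouse 1, without control DDC mouse 2 or with the number of strong peaks as a covariate, and the HoxB median was then 0.27, 0.26 and 0.31.

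The change with the lowest adjusted p was in Hoxc13, a gene of hair and nail keratin programmes. A region at chr15:102921496-102922355, 365 bp inside the lower-coordinate end of the Hoxc13 span, was at percentile 6.0 in mouse 1 and absent in mice 2 and 3 of the floxed controls on the standard diet. On DDC the floxed controls had 65.4, 70.5 and 63.9. The mean value went from 1.31 ± 0.08 to 2.72 ± 0.13 (SD, n = 3), a rise of 1.40 ± 0.26 (limma adjusted p = 0.00196), although the size rests in part on the value given to absent regions. Fbxl5-deleted mice had 34.0, 22.0 and 40.5 on the standard diet and 13.6, 21.1 and 53.9 on DDC, which overlap, with a difference of 0.01 ± 0.26 (adjusted p = 1.0). The difference between the genotypes' diet effects was −1.39 ± 0.36, and its adjusted p of 0.836 did not pass the limma test. On DDC, Fbxl5-deleted mice were below floxed controls by −0.92 ± 0.26 (adjusted p = 0.415) with no overlap, and by −2.02 (adjusted p = 0.00905) when only peaks whose −log10 q reached 5 were used. The rise in floxed controls was called with each of the 12 libraries left out in turn, at 1.33 to 1.46, and with 50% reciprocal overlap no matching region was tested.

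The other called region in floxed controls, chr11:96284128-96284759, lay 566 bp inside the Hoxb7-facing end of the Hoxb8 span, 845 bp from Hoxb7. Floxed controls on the standard diet had percentiles of 37.8 in mouse 1 and 29.3 in mouse 3 and none in mouse 2, and on DDC 68.3, 64.8 and 59.5. This was a rise of 1.00 ± 0.27 (limma adjusted p = 0.0283), from 1.63 ± 0.32 to 2.63 ± 0.16 (SD, n = 3), and the groups did not overlap. In Fbxl5-deleted mice the values were 34.0, 35.3 and absent on the standard diet and 44.7, 56.5 and 31.1 on DDC, a difference of 0.42 ± 0.27 (adjusted p = 0.447). The interaction was −0.58 ± 0.38 (adjusted p = 0.887). The call was lost without control standard mouse 2 (0.82, adjusted p = 0.136) or 3 (1.05, 0.0628), without control DDC mouse 1 (0.93, 0.0989) or 2 (0.99, 0.0889), when shared peaks had to overlap by 50% both ways (0.46, 0.556), without a filter on regions (1.00, 0.0769) and with the number of strong peaks as a covariate (0.95, 0.0963).

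**Figure D4:**
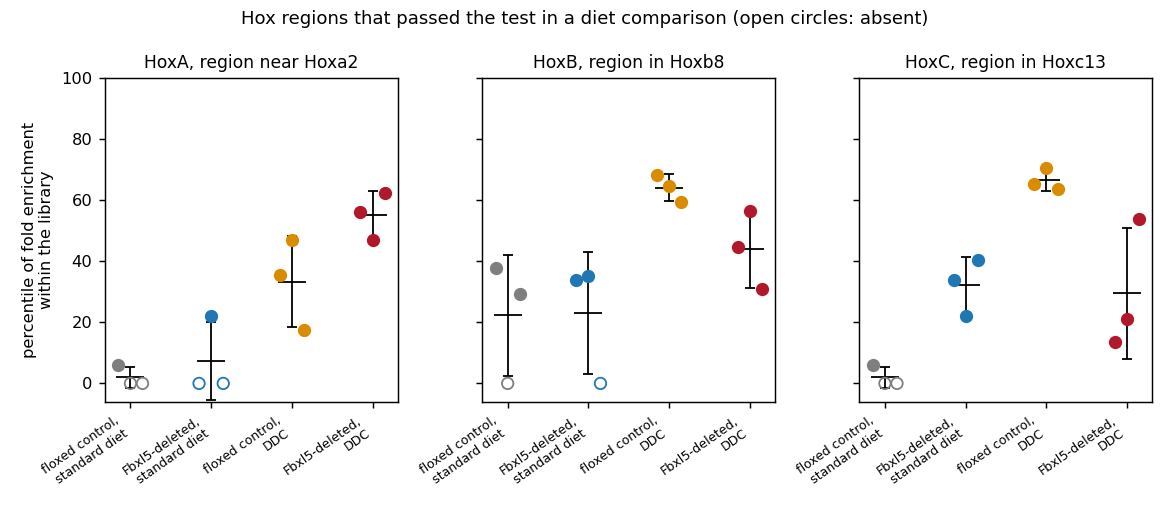
Percentile of fold enrichment (vertical axis) by group for the 3 Hox regions called in a diet comparison. Each circle is a library, open circles at 0 are absent regions, and bars give the mean ± SD with absent regions at 0. At the Hoxc13 region the floxed controls on DDC lie between 63.9 and 70.5, above all 9 other libraries, and at the region near Hoxa2 the 6 DDC libraries are spread from 17.4 to 62.4.

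DDC in Fbxl5-deleted mice raised 1 of the 64 Hox regions (1.56%) and lowered none, against 3.26% of all tested regions (2.5% higher and 0.767% lower). Unadjusted p-values were under 0.05 for 8 Hox regions, against 17.6% of all. The median difference was 0.06, against 0.01 over all, with 0.06 in HoxA, 0.21 in HoxB, 0.08 in HoxC and −0.04 in HoxD. In HoxB 6 of 9 regions were positive. With the number of strong peaks as a covariate it was 4 of 9 with a median of −0.06, and without deleted standard mice 1 and 3 the HoxB median was 0.12. The called region, chr6:52158697-52159039, lay 3378 bp from the Hoxa2 span, beyond the anterior end of the genes counted here. It overlapped the span of Hotairm1, an antisense RNA gene of the HoxA cluster known from myeloid cells. Fbxl5-deleted mice had it at percentile 22.0 in mouse 2 alone on the standard diet, and at 56.3, 47.0 and 62.4 on DDC. The rise was 0.95 ± 0.24 (limma adjusted p = 0.0320), from 1.39 ± 0.21 to 2.34 ± 0.23 (SD, n = 3). In floxed controls it was at 6.0 in mouse 1 alone on the standard diet and at 35.6, 46.9 and 17.4 on DDC, a difference of 0.53 ± 0.24 that was not called (adjusted p = 0.208). The interaction was 0.43 ± 0.34 (adjusted p = 0.913). A neighbour, chr6:52158080-52158632, was looked at after its values were seen. It was in none of 6 standard-diet libraries and in 5 of 6 DDC libraries, so it entered the tests through DDC libraries alone. Its absence on the standard diet is therefore no separate support for the called region. Its differences of 0.36 ± 0.18 and 0.38 ± 0.18 were not called (limma adjusted p = 0.246 and 0.275). In the full lists, where the 2 regions join, a peak was present in 2 of 6 standard-diet and 6 of 6 DDC libraries. The called region alone had the same listing with the kept peaks. The call in Fbxl5-deleted mice was not firm. It was lost without deleted standard mouse 1 (0.89, adjusted p = 0.0906) or 3 (0.89, 0.0985), without both (0.71, 0.42), and without deleted DDC mouse 1 (0.94, 0.0750) or 3 (0.85, 0.0987). It was also lost with all deposited peaks (1.56, 0.0624), with −log10 q from 5 (1.10, 0.240), with 50% reciprocal overlap (1.08, 0.0614), without a filter on regions (0.95, 0.101), without ranking (1.04, 0.0527), with only the 2 groups compared (0.95, 0.127) and with the number of strong peaks as a covariate (0.75, 0.434).

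The largest differences that were not called stood at some of the strongest regions. At the Hoxb3 region between Hoxb5 and Hoxb4, floxed controls had percentiles of 76.2, 67.6 and 29.3 on the standard diet and 84.0, 88.9 and 74.2 on DDC, and Fbxl5-deleted mice had absent, 65.8 and 62.5 and then 78.0, 75.5 and 83.7. The differences were 0.83 ± 0.34 (limma adjusted p = 0.155) and 1.03 ± 0.34 (adjusted p = 0.108), with the DDC libraries the higher in both genotypes but for an overlap in floxed controls at 74.2 and 76.2. They were 0.44 without control standard mouse 3 and 0.58 without deleted standard mouse 1, and 0.38 and 0.26 with the number of strong peaks as a covariate. The Hoxc10 region went from 34.0, 65.8 and absent to 62.7, 78.2 and 66.4 in Fbxl5-deleted mice, a difference of 0.89 ± 0.32 (adjusted p = 0.142) with overlap. Without deleted standard mouse 2, the only library of its group that did not stand apart, this became 1.27 (adjusted p = 0.0331). Also in that setting a second Hoxd3 region, chr2:74740282-74740780, was called lower at −1.29 (adjusted p = 0.0118), against −0.81 ± 0.31 with all libraries (adjusted p = 0.175). Its listing is described with the genotype comparison.

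In floxed controls, summed values at markers of other liver cells also differed between the diets, with overlap for cholangiocyte markers. In Fbxl5-deleted mice most of these lists overlapped between the diets. In floxed controls the summed rank-based fold enrichment over the tested regions of stellate cell and fibroblast markers was 145 to 172 on the standard diet and 201 to 217 on DDC, with 2 of 39 regions called higher and none lower. For macrophage and myeloid markers the sums were 113 to 123 and 132 to 138 (2 higher and 1 lower of 25), and for endothelial markers 339 to 362 and 365 to 383 (3 higher and 5 lower of 65). Cholangiocyte markers had 99.9 to 112 and 110 to 122 (none higher and 2 lower of 20), and lymphocyte markers 83.7 to 91.6 and 72.1 to 73.2 (none higher and 1 lower of 13). The hepatocyte markers had 341 to 407 and 260 to 302 (none higher and 1 lower of 99). The same sum over the 64 Hox regions was 197 to 227 and 231 to 249. The sum over all tested regions is not given here, so none of these sums has a background. Over all tested regions 7.15% were called in floxed controls. The called share was below this for hepatocyte (1.01%) and stellate markers (5.13%). It was above this for lymphocyte (7.69%) and endothelial markers (12.3%), and also for cholangiocyte and myeloid markers. In Fbxl5-deleted mice the stellate sums were 127 to 174 on the standard diet and 175 to 189 on DDC, with 3 regions called higher and 1 lower. Endothelial sums there overlapped (334.8 to 370.7 and 364.2 to 372.7), as did myeloid sums (112.2 to 124.3 and 122.4 to 128.4). Cholangiocyte sums (102.1 to 112.7 and 111.6 to 117.3) and lymphocyte sums (68.96 to 88.25 and 75.77 to 78.6) also overlapped. Hepatocyte sums there were apart, at 339.0 to 400.5 and 250.4 to 322.5. The Hox sums were 152 to 203 and 193 to 228, which overlap. In that genotype 10.3% of the stellate regions were called, against 3.26% of all tested regions, and every other marker list lay below 3.26%. The largest called change of each marker list in floxed controls could go either way. Higher on DDC were a stellate Reln region (1.78 ± 0.27, limma adjusted p = 0.000342), an endothelial Fcgr2b region (2.03 ± 0.25, adjusted p = 4.98e-05) and a myeloid Itgam region (1.37 ± 0.27, 0.00342). Lower were a cholangiocyte Sox9 region (−1.39 ± 0.29, 0.00603), a lymphocyte Cd4 region (−1.73 ± 0.36, 0.00519) and a hepatocyte Trf region (−0.81 ± 0.22, 0.0297). The Fcgr2b region was listed in none of the 6 standard-diet libraries and all 6 on DDC. Whether a change in these cells has a part in the Hoxc13, Hoxb8 and Hoxa2 differences was not tested.

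No Hox region was called by limma for Fbxl5 deletion on either diet with the kept peaks. The Hoxc13 region was called lower on DDC when only peaks whose −log10 q reached 5 were used (−2.02, limma adjusted p = 0.00905). The share called over all regions in that setting is not given here. On the standard diet 0 of 64 Hox regions were called, against 0.000734% of all tested regions (1 region), and 3 had an unadjusted p under 0.05, against 8.11% of all. On DDC 0 were called, against 0.0% of all, and 4 had an unadjusted p under 0.05, against 5.92%. The median differences over the Hox regions were −0.06 and −0.05, against 0 over all in both. On the standard diet the HoxD median was −0.20, with 3 of 21 regions positive, while HoxA had 0.03, HoxB 0.01 and HoxC 0. Without deleted standard mice 1 and 3 the HoxD median was −0.14 with 9 of 21 positive, and with the number of strong peaks as a covariate it was −0.03. On DDC the medians were 0.04, −0.15, −0.03 and −0.12 in HoxA to HoxD.

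The largest genotype differences on the standard diet were reversed or smaller without the libraries that stood apart. At the second Hoxd3 region, percentiles were 1.0, absent and 29.3 in floxed controls and 71.1, absent and 62.5 in Fbxl5-deleted mice, a difference of 0.79 ± 0.31 (limma adjusted p = 0.505). Only mice 1 and 3 of the Fbxl5-deleted group were high, and without them the difference was −0.17. The region over the Hoxd3os1 promoter had 70.8, 70.3 and 65.2 in floxed controls and absent, 71.2 and 50.5 in Fbxl5-deleted mice, −0.68 ± 0.30 (adjusted p = 0.574), and 0.08 without mice 1 and 3. On DDC it had 74.8, 84.8 and 81.8 in floxed controls and 63.6, 50.7 and 68.8 in Fbxl5-deleted mice, with no overlap, and −0.73 ± 0.30 was not called (adjusted p = 0.749). In the Hoxc9 span, chr15:102981656-102982237 had 67.3, 44.2 and 69.1 against absent, 50.2 and 54.1 on the standard diet, −0.61 ± 0.30 (adjusted p = 0.627), with overlap, and −0.34 without mice 1 and 3.

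No Hox region was called for the genotype by diet interaction, and none was called over the genome (0.0%). An unadjusted p under 0.05 was found for 2 Hox regions, against 5.91% of all. The median was 0.05, against 0.01. Besides the Hoxc13 region, the largest were the second Hoxd3 region at −0.76 ± 0.44 (limma adjusted p = 0.868), which became 0.20 without the libraries that stood apart, and the Hoxa13 promoter region at −0.67 ± 0.37 (adjusted p = 0.865), which was −0.40 without control standard mouse 2. The Hoxa13 region had percentiles of 63.3, 32.7 and 62.9 in floxed controls on the standard diet, 66.3, 66.6 and 55.9 in Fbxl5-deleted mice on that diet, 45.9, 59.4 and 62.0 in floxed controls on DDC and 43.6, 42.7 and 37.6 in Fbxl5-deleted mice on DDC. The Fbxl5-deleted libraries on DDC were below the other DDC and Fbxl5-deleted libraries but not below all of the floxed controls on the standard diet.

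**Figure D5:**
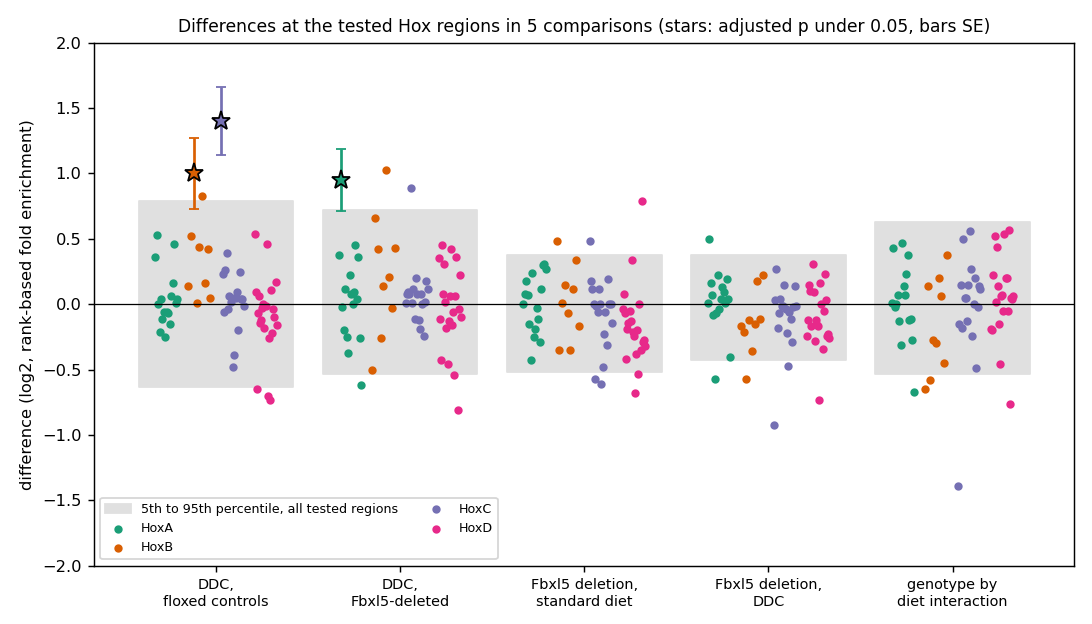
Differences (vertical axis, log2 of rank-based fold enrichment) at the 64 tested Hox regions in 5 comparisons (horizontal axis), coloured by cluster. Stars with SE bars mark the 3 called regions and grey bands the range from the 5th to the 95th percentile over all tested regions. Most Hox regions lie within the bands, and the 9 HoxB differences for DDC in floxed controls are all above 0.

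Genes that act with or on the clusters changed at a few regions with DDC and at none with the genotype. In floxed controls the called shares were 7.55% of the cofactor regions, 3.01% of Polycomb, 1.67% of trithorax and 4.35% of retinoic acid pathway regions, against 7.15% of all. In Fbxl5-deleted mice they were 3.77, 1.81, 1.67 and 0.621%, against 3.26%. HOX cofactors of the TALE homeodomain family, which bind DNA together with Hox proteins, had 4 regions higher and 4 lower of 106 in floxed controls and 3 higher and 1 lower in Fbxl5-deleted mice. The largest change in floxed controls was at a Meis1 region, at 1.31 ± 0.24 (limma adjusted p = 0.00167). Polycomb genes had 4 higher and 1 lower of 166 and then 0 higher and 3 lower, with a region of Pcgf3, a subunit of a variant Polycomb complex, at −1.38 ± 0.28 and −1.05 ± 0.28 (adjusted p = 0.00491 and 0.0452). Trithorax and H3K27 demethylase genes had 1 higher of 60 in each genotype, a region of Kdm6a, which removes the Polycomb mark H3K27me3, at 1.33 ± 0.27 and 1.25 ± 0.27 (adjusted p = 0.00483 and 0.0134). Of the retinoic acid pathway, 6 regions were higher and 1 lower of 161 in floxed controls and 1 was higher in Fbxl5-deleted mice.

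Of the regions of flanking genes 4.35% were called in floxed controls, of ParaHox and Hox-linked genes 3.03%, of other homeobox and paired-box genes 1.41% and of RNA genes in the clusters 0.0%, against 7.15% of all. In Fbxl5-deleted mice the shares were 1.09, 0.0, 0.704 and 2.94%, against 3.26%. The flanking genes had 3 regions higher and 1 lower of 92 in floxed controls and 1 higher in Fbxl5-deleted mice, with a region of Snx10, a sorting nexin gene beyond the HoxA cluster, at 1.41 ± 0.29 and 1.39 ± 0.29 (limma adjusted p = 0.00465 and 0.00989). ParaHox and Hox-linked homeobox genes had 1 higher of 33 in floxed controls, at Cdx1 (1.15 ± 0.26, adjusted p = 0.00865), and none in Fbxl5-deleted mice. Among other developmental homeobox and paired-box genes 1 region was higher and 1 lower of 142 in floxed controls, the latter at Six6 (−1.05 ± 0.31, adjusted p = 0.0446), and 1 was higher in Fbxl5-deleted mice, at Dlx2 (0.93 ± 0.24, adjusted p = 0.0399). RNA genes inside the clusters had none called of 34 in floxed controls and 1 higher in Fbxl5-deleted mice, the Hotairm1 region already described near Hoxa2. Over these 8 lists the median differences ran from −0.08 to 0.01 in floxed controls and from −0.15 to 0.11 in Fbxl5-deleted mice. No region of these 8 lists was called in either genotype comparison or for the interaction. The comparisons of 1 genotype or 1 diet share libraries, so their values are not independent of each other.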

How the data were processed

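Accessibility was measured by ATAC-seq in 12 libraries, each taken as 1 mouse. Per the submitters' processing notes MACS2 was used on build mm10, with Bowtie2, fastp, Picard, SAMtools, deepTools and bedtools among the tools named. The sources used here give neither their settings nor any shift of read ends. The authors deposited 1 peak list per library, so replicates were not pooled. The deposited fold enrichment is a ratio of peak height to the caller's background, and it gave the ranks. The deposited −log10 q served as a stricter threshold. The deposited −log10 p, the score and the summit position were not used for any result. The lists hold no read counts, so depth is known only through the peaks.

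Only peaks of chromosomes 1 to 19 and of X and Y entered, several summits of 1 peak were merged, and the strongest 137034 per library by fold enrichment were kept. Where equal peaks at the last place could not all be kept, all of them were left out, because choosing among them by position would favour some chromosomes. Regions, ranks and the test at an adjusted p under 0.05 are described with the results. Fits used limma 3.58.1 (trend and robust settings, 4 group means, no covariates) in R 4.3.3, and were tested on simulated data. There 55% of changes of log2 size 1 and 97% of size 2 were recovered, all placed in regions above the median value. Recovery in weaker regions, where many Hox regions lie, was not measured, so a region that was not called is not shown to be unchanged. Tables and plots used Python 3.11.15, numpy 2.4.6, pandas 2.3.3 and matplotlib 3.10.9.

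Replicate numbers were not used as pairs: the correlation of same-numbered libraries' deviations from their group means lay between −0.0239 and 0.0563. Gene spans come from a RefSeq table without strand or exons, so exonic and intronic positions are not known here. The regions named were every called Hox region, the 3 with the highest median percentile in each cluster and the 3 with the largest difference in each comparison. Alternatives varied the peaks kept, the overlap, the filter, the ranking, the fit and the libraries. A shorter list of equal length and the number of strong peaks as a covariate were chosen after seeing the data. In other lists the called region with the largest difference was named, except where it is not reported here. Members, lists and rules were chosen with earlier results of these data known. The labels give genotype, diet and a replicate number. With each replicate taken as a separate mouse, p-values measure the spread between mice.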

Additional observations from a re-analysis of the deposited data

How the results depend on the processing

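The 3 calls differed in how they stood up. The Hoxc13 rise in floxed controls was called in each fit with a library left out, at 1.33 to 1.46. Without control standard mouse 2 or 3 or control DDC mouse 1 or 2, 1 Hox region was called for DDC in floxed controls, and the count ran from 1 to 3 over the 12 fits, with the Hoxb8 region beside Hoxb9 the third without deleted standard mouse 1. For DDC in Fbxl5-deleted mice it ran from 0 to 3: it was 0 without deleted standard mouse 1 or 3 or deleted DDC mouse 1 or 3, and 3 without deleted standard mouse 2 (Hoxc10 and Hoxa2 higher, Hoxd3 lower). Genotype and interaction counts were 0 in each of these fits. The medians ran from −0.02 to 0.05, 0 to 0.08, −0.12 to 0, −0.06 to −0.01 and −0.01 to 0.09 in the 5 comparisons. Among other settings, floxed controls had 0 calls with 50% reciprocal overlap, where no region matched Hoxc13, 1 without a filter on regions (142 tested), 1 with the number of strong peaks as a covariate, and 4 on log2 fold enrichment without ranking, which moved the median of all regions to 0.18 and that of the Hox regions to 0.34. Fbxl5-deleted mice had 0 calls in those 4 settings, with all deposited peaks, with −log10 q of at least 5, with only the 2 groups compared and without deleted standard mice 1 and 3; without ranking their Hox median was 0.19 (all regions 0.17) and that of the interaction −0.08. With all deposited peaks the Hox medians were 0.38 for DDC in floxed controls, 0.14 for deletion on the standard diet and −0.36 for the interaction. With −log10 q of at least 5, 26 Hox regions were tested and 3 listed in all libraries (2 with 50% reciprocal overlap), and the medians were 0.30 and 0.43 for DDC in floxed and Fbxl5-deleted mice, −0.58 and −0.22 for deletion on the standard and DDC diets and 0.39 for the interaction. In that setting 1 region was called lower with deletion on DDC, Hoxc13 at −2.02 (limma adjusted p = 0.00905). The shares called over all regions in that setting and without ranking are not given here, so these counts stand without a background. Reversed in sign were the second Hoxd3 region without deleted standard mice 1 and 3 (−0.17 on the standard diet, 0.20 for the interaction), the Hoxd3os1 promoter region in the same setting (0.08), and the called Hoxb8 region for deletion on DDC with 50% reciprocal overlap (0.17). The cause of these shifts was not tested.

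Covered shares, in the order control standard, deleted standard, control DDC and deleted DDC, were 1.73, 1.23, 2.18 and 1.52% in HoxA, 0.607, 0.479, 1.04 and 0.957% in HoxB, 0.878, 0.253, 1.23 and 0.586% in HoxC and 2.74, 0.863, 2.25 and 1.75% in HoxD with −log10 q of at least 5. With all deposited peaks they were 4.28, 5.73, 6.90 and 5.97% in HoxA, 1.60, 2.89, 3.54 and 2.85% in HoxB, 2.38, 3.68, 4.93 and 4.45% in HoxC and 6.19, 5.34, 7.90 and 6.91% in HoxD. With 1 library of the group left out they ran, in HoxA, from 3.95 to 4.35%, 3.75 to 4.34%, 4.67 to 4.85% and 4.78 to 5.00%. In HoxB they ran from 1.18 to 1.64%, 1.37 to 1.52%, 2.09 to 2.56% and 1.90 to 2.04%. HoxC had 2.12 to 2.75%, 1.77 to 2.05%, 2.91 to 3.34% and 2.37 to 2.98%, and HoxD 5.62 to 6.47%, 3.58 to 4.24%, 5.45 to 5.80% and 4.92 to 5.66%.

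With the replicate number as a block, 2 Hox regions were called for DDC in floxed controls (1.40 at Hoxc13, 1.00 at Hoxb8) and 1 in Fbxl5-deleted mice (0.95 at Hoxa2), and the block changed no other call. Of the 12 libraries 8 correlated best with one of their own number, a hint from the data and not from the design. Depth limits absent regions: an absent peak lies below the strength kept in that library and is not shown to be closed.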
